A study of Mus musculus with 4 samples.

Results

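The Dppa genes (developmental pluripotency associated) are a group named for a shared expression pattern, in pluripotent cells and the early embryo, and not for a shared sequence. The 4 members described here, Dppa2, Dppa3, Dppa4 and Dppa5a, were taken by symbol from a table of 14382 mouse genes, and all 4 had a row. The rule uses no measured value, although the group was picked with earlier results of these data known. DPPA2 and DPPA4 are SAP-domain proteins that bind each other and chromatin, keep many CpG-rich developmental promoters free of DNA methylation, and help switch on Dux and the genes of the 2-cell-like state. DPPA3, also called STELLA or PGC7, binds the methylation reader UHRF1, opposes maintenance of DNA methylation by DNMT1, and shields the maternal genome from demethylation in the zygote. In ESC cultures with serum it is known to be on in a fraction of the cells, and it marks primordial germ cells. DPPA5A, also called ESG1, is a small KH-type RNA-binding protein that is abundant in ESCs.

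The cells were Arid1af/f:CreERT2 mouse embryonic stem cells (ESCs), in which Arid1a is floxed and 4-hydroxytamoxifen (4-OHT) switches on the Cre recombinase CreERT2. ARID1A belongs to the BAF complex, which remodels chromatin. Both groups had this genotype and grew on irradiated mouse embryonic fibroblasts in medium with LIF, serum and serum replacement. For 24 hours 2 samples received ethanol and 2 received 1 µM 4-OHT, the cells were then passaged, and polyA RNA was collected 72 hours after treatment. Ethanol cells therefore carry the floxed alleles and CreERT2 too, and no 4-OHT control without floxed alleles is among these samples. The labels name the line only by its genotype and do not say that replicates were separate cultures, so the spread behind each p-value is that of these samples and may be technical only.

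The table held group means in CPM (reads scaled by library size), and the reads of each library were worked back from them. Recovered totals were 6188378 to 7012664 reads a library. Within a group the recovered libraries are named A and B, as the table carries no replicate numbers. Arid1a itself fell from 510 ± 10.7 to 227 ± 19.8 CPM after 4-OHT (mean and SD of 2 libraries each; adjusted p = 7.27e-06, limma), with reads of the whole gene counted and the floxed part not separated. Among all 14376 tested genes, 754 rose and 606 fell. The labels name a kit that keeps strand and one that does not, without saying which library had which, so that a kit difference and the treatment cannot be told apart. All 8 ESC markers examined, Pou5f1 and Nanog among them, were expressed. Of these, Nanog and Tdgf1 rose, Sox2 and Esrrb fell and 4 did not pass, where 5.24% of all tested genes rose and 4.22% fell. DESeq2 did not call Sox2 (DESeq2 adjusted p = 0.0575). The summed level of the 8 was 4310 to 4405 CPM in the ethanol libraries and 4522 to 4589 CPM with 4-OHT.

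The members lie at 3 loci (mm10, Gencode annotation, 1-based). Dppa4 (chromosome 16, 48283733 to 48294237, plus strand) and Dppa2 (chromosome 16, 48303908 to 48319723, plus strand) are neighbours, 9670 bases apart. Dppa3 (chromosome 6, 122626410 to 122630272, plus strand) sits between Gdf3 and Nanog. Dppa5a (chromosome 9, 78367052 to 78368177, minus strand) is next to Ooep, another gene of the KH family.

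Each member has near-identical copies elsewhere in the genome, mostly processed pseudogenes, which bears on how its reads can be counted. Of annotated transcripts, 21 pairings of a member with another gene matched its coding sequence at 90% identity or more over at least 100 bases. Dppa2 had 6 such copies, Dppa3 had 3, Dppa4 had 2 and Dppa5a had 10. Copies are counted by annotated gene. Gm15310 lies within Pigp and Gm11649 within A830035A12Rik, so the 10 of Dppa5a cover fewer loci. The closest copy of each stands beside its member here, as the 90 coding-sequence bases that differ most without a gap, with differing bases in capitals. Positions in the members are counted from the first base of the coding sequence, bases 32 to 121 in Dppa2, 77 to 166 in Dppa3, 22 to 111 in Dppa4 and 192 to 281 in Dppa5a (Gencode, mm10, transcript strand, 5′ to 3′).
Dppa2: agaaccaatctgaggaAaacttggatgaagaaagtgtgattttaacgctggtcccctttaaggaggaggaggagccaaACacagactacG
Gm9788: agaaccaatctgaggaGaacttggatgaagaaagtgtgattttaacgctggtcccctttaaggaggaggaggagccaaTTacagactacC
Dppa3: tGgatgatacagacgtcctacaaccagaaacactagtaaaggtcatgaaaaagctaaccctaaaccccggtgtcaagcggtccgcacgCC
Dppa3-ps: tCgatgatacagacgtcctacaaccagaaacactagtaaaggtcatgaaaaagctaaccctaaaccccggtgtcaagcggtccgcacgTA
Dppa4: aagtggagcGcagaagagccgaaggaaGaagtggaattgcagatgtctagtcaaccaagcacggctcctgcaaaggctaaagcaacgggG
Gm14058: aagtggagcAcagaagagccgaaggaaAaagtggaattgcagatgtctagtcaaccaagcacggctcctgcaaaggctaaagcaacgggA
Dppa5a: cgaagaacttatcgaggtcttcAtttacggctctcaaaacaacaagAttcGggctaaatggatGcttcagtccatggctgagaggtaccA
Gm6083: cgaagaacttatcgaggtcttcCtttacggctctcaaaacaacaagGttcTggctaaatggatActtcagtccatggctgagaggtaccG

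Even in these windows the pairs differ at few places, at 4 of 90 bases for Dppa2 and Gm9788, 3 for Dppa3 and Dppa3-ps, 3 for Dppa4 and Gm14058 and 5 for Dppa5a and Gm6083. Dppa2 and Gm9788 (chromosome 19, 41459813 to 41460718) share 99.3% of 906 bases, with an identical run of 381 bases. Dppa3 and its X-linked processed pseudogene Dppa3-ps (37625647 to 37626097) share 98.2% of 451 bases, and their longest identical run is 86 bases. Over its longest matched segment of 532 bases, Dppa4 shares 99.4% with Gm14058 (chromosome 2, 122214620 to 122215354), and Dppa5a shares 96.9% of 357 bases with Gm6083 (chromosome 5, 29538153 to 29538509). Dppa5a also has a pair of pseudogene copies on its own chromosome, Dppa5b and Dppa5c, each 96.3% identical over 299 bases. Of the 21 copies, only Gm6083 and Pigp, a gene of membrane anchor synthesis with a transcript that matches Dppa5a over 239 bases, had rows of their own. Gm6083 averaged 0.622 CPM with ethanol and 0.991 with 4-OHT, Pigp averaged 6.45 and 9.50, and neither passed the test (limma adjusted p = 0.512 and 0.214). How the authors counted reads that match more than 1 place is not given in the sources used here, so all 4 levels are uncertain to that extent. Dppa2 and Dppa4, in contrast, could hardly take each other's reads: their coding sequences aligned over 201 positions only, at 67.2% identity, with no identical run above 11 bases.

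With 4-OHT, Dppa3 rose about 3-fold, Dppa2 rose 1.32-fold, and Dppa4 and Dppa5a did not pass the test. So 2 of the 4 members were called higher and 0 lower, where 5.24% of all tested genes were called higher and 4.22% lower (limma on log2(CPM + 1), Benjamini-Hochberg adjusted p under 0.05). By edgeR the same 2 were called higher, against 8.12% of genes, and by DESeq2 Dppa3 was, against 2.85% of genes. In each of the 4 genes both 4-OHT libraries lay above both ethanol libraries, as they did in 26.4% of all tested genes.

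**Figure D1:**
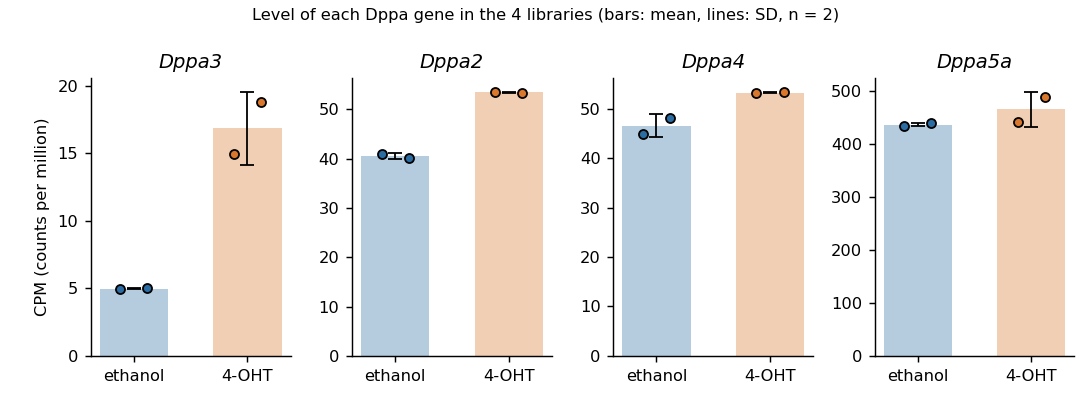
CPM (vertical axes, each from 0) of the 4 Dppa genes in ethanol (blue) and 4-OHT (orange); each point is a library, bar heights are means and whiskers are SDs. Dppa3 lies near 5 CPM in both ethanol libraries and at 14.9 and 18.8 CPM with 4-OHT, while Dppa5a moves from a mean of 437 to 466 CPM.

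Dppa3, the gene of STELLA, was the lowest of the 4 and changed most. It stood at 4.96 and 4.99 CPM in ethanol libraries A and B, which is 32 reads in each, and at 14.9 and 18.8 CPM with 4-OHT, from 105 and 118 reads. The 2 ethanol libraries were almost equal, the 4-OHT libraries differed from each other by more, and the groups stood well apart. The mean went from 4.98 ± 0.0227 to 16.8 ± 2.71 CPM (SD, n = 2 per group), a ratio of 3.38. Over pooled reads, 64 against 223, the ratio was 3.36 with an exact interval of 2.54 to 4.51, which covers counting error only. The log2 fold change of CPM + 1 was 1.57 (SE 0.17, 95% interval 1.19 to 1.95; limma adjusted p = 0.000441). It ranked 40th from the top among the 14376 genes. Of 1804 genes whose mean level lay within 1.5-fold of that of Dppa3, 10 had a larger log2 fold change. In bulk RNA, more cells with the transcript and more transcript per cell cannot be told apart, which matters for a gene known to be on in a fraction of ESCs. Without 4-OHT library A or B limma called 0 genes (2505 and 2514 had an unadjusted p under 0.05; edgeR called 1588 and 1767) and Dppa3 was at an adjusted p of 0.134 or 0.137, whereas edgeR's quasi-likelihood test on the same reads gave an adjusted p of 2.24e-14 and 6.33e-10. Either fit then has 1 library in the 4-OHT group and assumes that it varies like the ethanol pair, so neither p measures the spread of the 4-OHT group.

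Dppa2 and Dppa4, whose products work as a complex, differed less between the groups than Dppa3. Dppa2 stood at 40.9 and 40.1 CPM in ethanol and at 53.6 and 53.4 CPM with 4-OHT. Within either group the 2 libraries of Dppa2 were less than 1 CPM apart, against a gap of more than 10 CPM between groups. So close a match of 2 libraries is only a rough guide to spread. Over pooled reads, 521 against 713, the ratio was 1.32 with an exact 95% interval of 1.18 to 1.48, which covers counting error only. The mean of Dppa2 rose from 40.5 ± 0.585 to 53.5 ± 0.127 CPM, with a log2 fold change of 0.39 (SE 0.081, 95% interval 0.21 to 0.57, limma adjusted p = 0.0129). The edgeR test called Dppa2 too (edgeR adjusted p = 0.00144), but DESeq2 did not (DESeq2 adjusted p = 0.102), and limma lost it without either 4-OHT library (adjusted p = 0.187 in both cases).

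Dppa4 stood at 44.9 and 48.2 CPM in ethanol and at 53.2 and 53.4 CPM with 4-OHT. Its ethanol libraries were farther apart than those of Dppa2, and the groups did not overlap. The means were 46.6 ± 2.30 and 53.3 ± 0.174 CPM, with a log2 fold change of 0.19 (SE 0.081, 95% interval 0.01 to 0.37), and the gene did not pass (limma adjusted p = 0.186, edgeR adjusted p = 0.172). The interval allows a level up to 1.29 times that in ethanol, and so does not show that Dppa4 was the same in both groups. In simulated libraries of this depth and spread, limma called 30 of 50 genes changed 1.5-fold. These genes were drawn over a wide range of levels, so the share is not that at the level of Dppa4. Smaller changes were not simulated.

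Dppa5a, the RNA-binding member, was by far the most abundant. It stood at 435 and 439 CPM in ethanol and at 442 and 490 CPM with 4-OHT. One 4-OHT library was within a few CPM of the ethanol libraries and the other was higher, so the small difference of means, from 437 ± 2.98 to 466 ± 33.4 CPM, was below the SD of the 4-OHT pair. Its log2 fold change was 0.09 (SE 0.061, 95% interval -0.04 to 0.22) and did not pass (limma adjusted p = 0.417, edgeR adjusted p = 0.346). The interval runs from 0.969 to 1.17 times the ethanol level, so a rise as large as that of Dppa3 lies outside it.

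**Figure D2:**
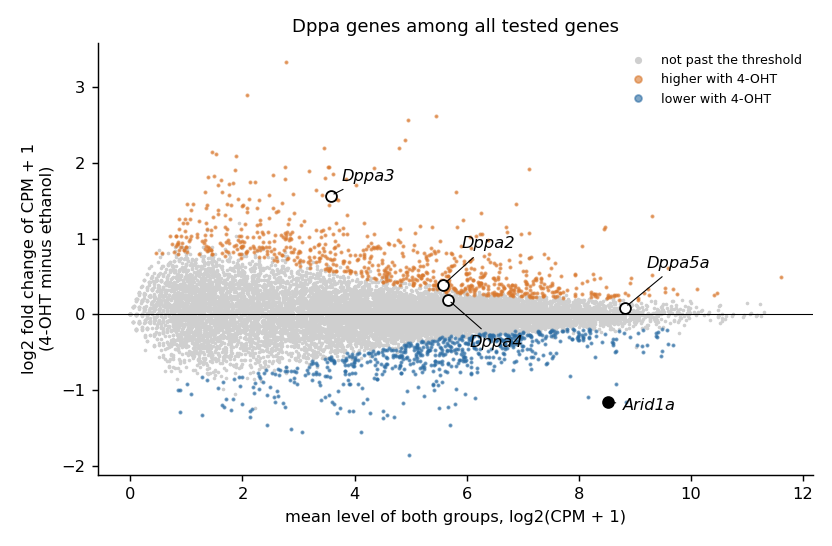
Difference in log2(CPM + 1) between 4-OHT and ethanol (vertical axis, positive where 4-OHT is higher) against mean level (log2(CPM + 1), horizontal axis) for 14376 genes, with genes called higher in orange, called lower in blue and the rest in grey; open circles are the Dppa genes and the filled circle is Arid1a. Dppa3 stands at 1.57 above most genes of its level, whereas Dppa4 at 0.19 and Dppa5a at 0.09 lie within the grey band.

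The change of Dppa3 was set against that of the other members within each library. On log2(CPM + 1), Dppa3 minus the mean of Dppa2 and Dppa4 was -2.88 and -2.91 in the ethanol libraries and -1.77 and -1.46 with 4-OHT. The distance to the pair thus shrank in both 4-OHT libraries, by 1.28 on average, and the groups did not overlap. Against Dppa5a the difference was -6.19 and -6.20 in ethanol and -4.80 and -4.63 with 4-OHT, a shift of 1.48. An exact two-sided permutation test gave for both the smallest p that 2 against 2 samples allow, which is 2 of 6 splits, so this test cannot pass the threshold here whatever the values. The 95% interval of the log2 fold change of Dppa3 (1.19 to 1.95) lay wholly above those of Dppa2 (0.21 to 0.57), Dppa4 (0.01 to 0.37) and Dppa5a (-0.04 to 0.22).

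In CPM, Dppa3 was at 0.121 and 0.125 of the level of Dppa2 in the ethanol libraries and at 0.279 and 0.351 of it with 4-OHT. The ratio of Dppa2 to Dppa4 was 0.910 and 0.832 in ethanol and 1.008 and 1.00 with 4-OHT. The ratio was higher in both 4-OHT libraries, a shift of 0.20 on log2(CPM + 1), again at the smallest p of the exact permutation test. Intervals of Dppa2 and Dppa4 overlapped, but overlap of separate intervals does not test a difference. Whether the changes of the pair differ is therefore neither shown nor excluded.

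Levels of different genes can be compared only per length, here as CPM per kb of the longest protein-coding transcript (833 bases for Dppa3, 2447 for Dppa2, 1479 for Dppa4 and 619 for Dppa5a). Shorter coding transcripts are annotated too, down to 691 bases for Dppa3, 1948 for Dppa2 and 1271 for Dppa4. Which isoforms the cells express was not measured, and the values per kb depend on the length used. In ethanol the order was Dppa5a (706 CPM per kb), Dppa4 (31.5), Dppa2 (16.6) and Dppa3 (5.97). Among 13610 genes with a length, Dppa5a ranked 24th and Dppa3 7899th, which are percentiles of 99.8 and 42. With 4-OHT the values were 753 CPM per kb for Dppa5a, 36.0 for Dppa4, 21.9 for Dppa2 and 20.2 for Dppa3. The 4-OHT libraries of Dppa3 (17.9 and 22.5 CPM per kb) then lay on both sides of those of Dppa2 (21.9 and 21.8). With the longest transcripts, these neighbours in the order thus no longer differed beyond their spread, while Dppa4 and Dppa5a stayed apart from both.

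**Figure D3:**
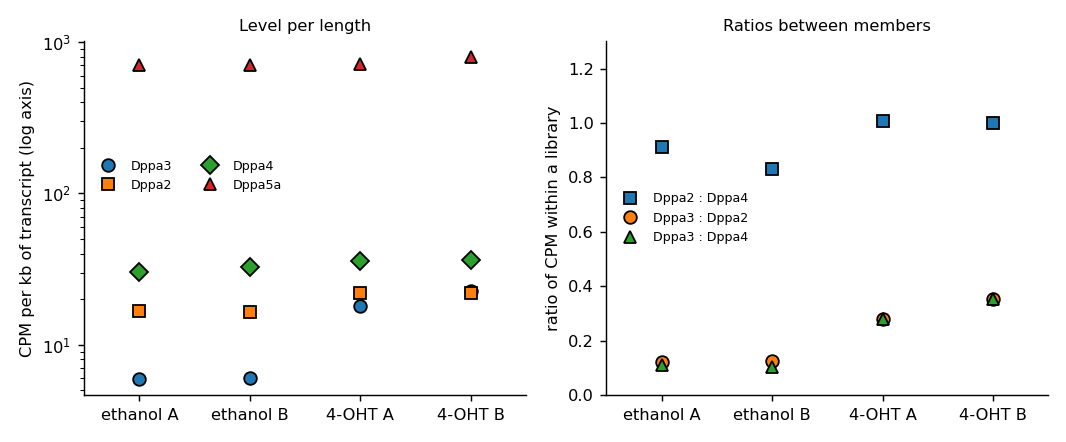
Left, CPM per kb of the longest protein-coding transcript (log axis) of the Dppa genes in each of the 4 libraries. Right, ratios of CPM between members within each library. Dppa3 moves from 5.97 to 20.2 CPM per kb and meets Dppa2 at 21.9, and its ratio to Dppa2 goes from 0.121 and 0.125 to 0.279 and 0.351.

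The genes next to the members were not alike in their changes. Morc1, a gene needed for transposon silencing in male germ cells and the next measured gene after Dppa2, had 40.6 and 40.2 CPM in the ethanol libraries and 62.4 and 64.8 CPM in the 4-OHT libraries (log2 fold change 0.64, SE 0.079; limma adjusted p = 0.000798). It rose by more than Dppa2, and both lie on the same side of Dppa4. On the other side, at a distance of 1785207 bases, the cell adhesion gene Nectin3 stood at 55.3 and 49.5 CPM (group means) and did not pass (adjusted p = 0.272, limma). Around Dppa3, Gdf3, a TGF-beta family ligand gene 16322 bases before it, was at 168 and 154 CPM and did not pass (limma adjusted p = 0.233). Nanog, the pluripotency factor gene 77216 bases after it, rose from 314 to 402 CPM, a log2 fold change of 0.36 (limma adjusted p = 0.00219). Of 7 measured genes of this chromosome 6 region other than Dppa3, 2 rose, 0 fell and 5 did not pass. Those that rose were Nanog and the glucose transporter gene Slc2a3. Over all tested genes 5.24% rose and 4.22% fell. Slc2a3 went from 2580 ± 37.8 to 3639 ± 181 CPM. None of the 7 had a log2 fold change above 0.50, against 1.57 for Dppa3, and their median was 0.34, against -0.00155 over all tested genes.

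Beside Dppa5a, Ooep, a maternal KH-family gene 7931 bases away, averaged 26.4 ± 0.0102 CPM in the ethanol group and 32.4 ± 0.539 CPM in the 4-OHT group without passing (limma adjusted p = 0.105). On the far side, the glutathione transferase gene Gsta4 was at 299 and 267 CPM and did not pass either (limma adjusted p = 0.113).

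**Figure D4:**
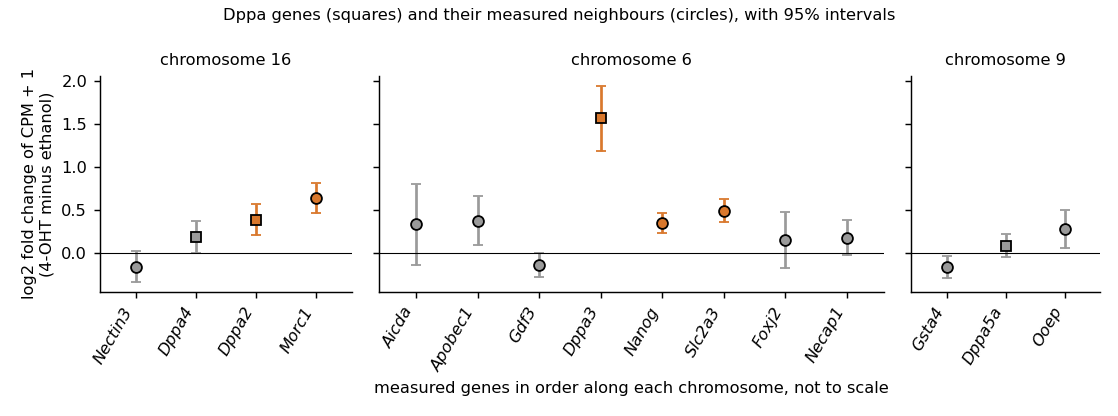
Difference in log2(CPM + 1) between 4-OHT and ethanol with its 95% interval for the Dppa genes (squares) and measured neighbours (circles) in chromosome order, not to scale; orange genes rose past the threshold and grey genes did not pass. Dppa3 at 1.57 stands above its neighbours Gdf3 (-0.13) and Nanog (0.36), and Morc1 (0.64) lies above Dppa2 (0.39).

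DPPA2 and DPPA4 act upstream of the 2-cell-like state, a rare ESC state with transcripts of the 2-cell embryo. Of 16 measured genes of that state, 4 rose (Zscan4d, Usp17la, Pramef6 and Gm8994), Ddit4l fell and 11 did not pass, where 5.24% of all tested genes rose and 4.22% fell. The median log2 fold change was 0.41, against -0.00155 over all tested genes. None of these 5 calls was made by DESeq2 (adjusted p = 0.054 for Zscan4d), and edgeR also called 4 higher, with Usp17le in place of Pramef6. A further 14 genes of the list were not analysed here, Dux among them. Zscan4d, of a family that maintains telomeres, went from 5.98 ± 1.18 to 12.4 ± 3.63 CPM (limma adjusted p = 0.0259), and the deubiquitinase family gene Usp17la from 2.02 ± 0.229 to 4.37 ± 0.345 CPM. Gm8994 went from 1.32 ± 0.324 to 3.46 ± 0.273 CPM. Pramef6 rested on 3 reads in ethanol and 18 with 4-OHT, a ratio of 5.79 with an exact 95% counting interval of 1.69 to 30.7, and was too low for edgeR to test. The stress-response gene Ddit4l fell from 38.1 ± 1.05 to 28.1 ± 1.47 CPM. Among the 16 genes only Ddit4l averaged more than 20 CPM in either group, so most of these levels rest on few reads. Zscan4, Usp17l and Pramef genes come in families of near-identical copies and their levels are uncertain.

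A further list held 15 measured genes, mostly germline, with promoters that respond to DNA methylation, some known targets of DPPA2 and DPPA4. Of these, 3 rose, 0 fell and 12 did not pass, against 5.24% and 4.22% of all tested genes, and the median was 0.30, against -0.00155. DESeq2 called 2 of the 3, without Hormad1 (DESeq2 adjusted p = 0.105). Tuba3a, a testis tubulin gene, rose from 8.09 ± 0.477 to 16.1 ± 1.06 CPM (limma adjusted p = 0.0042), and Mael, a piRNA pathway gene, from 11.7 ± 0.826 to 21.9 ± 0.984 CPM. Hormad1, a gene of meiotic chromosome axes, rose from 18.6 ± 0.634 to 27.4 ± 0.147 CPM. The meiotic genes Sycp1 and Syce1 and the germ cell helicase gene Ddx4 did not pass.

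Transcripts of enzymes and cofactors that add, maintain or remove DNA methylation changed in part. STELLA opposes only the maintenance part of this set. Of all 10 genes, 4 rose, 0 fell and 6 did not pass in limma, where 5.24% of all tested genes rose and 4.22% fell. The median log2 fold change was 0.105, against -0.00155 over all tested genes. DESeq2 called 3 of the 4, without Tet2 (DESeq2 adjusted p = 0.097). Uhrf1 and Dnmt1, whose products act in the maintenance that STELLA opposes, were slightly lower without passing in limma. Uhrf1 averaged 535 ± 4.38 CPM with ethanol and 492 ± 1.93 with 4-OHT (limma adjusted p = 0.178). Dnmt1 was at 612 ± 6.75 and 543 ± 7.28 CPM (limma adjusted p = 0.068), and edgeR called it lower (edgeR adjusted p = 0.03). Among the de novo enzymes and their cofactor, Dnmt3a rose from 219 ± 12.2 to 487 ± 2.49 CPM and Dnmt3l from 407 ± 8.15 to 568 ± 19.8 CPM. Dnmt3b was at 542 and 517 CPM and did not pass. Of the genes for enzymes that oxidise 5-methylcytosine, Tet1 rose from 238 ± 1.31 to 324 ± 32.2 CPM and Tet2 from 72.6 ± 2.09 to 91.9 ± 11.7 CPM (limma adjusted p = 0.0442), and Tet3 did not pass. DNA methylation itself was not measured.

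Dppa3 is also a marker of primordial germ cells. Of 12 measured genes of early germ cells, 3 rose, 1 fell and 8 did not pass. Over all tested genes 5.24% rose and 4.22% fell. The median of the 12 was 0.08, against -0.00155 over all tested genes. Of the 3 that rose, Ifitm3 was not called by DESeq2 (DESeq2 adjusted p = 0.195). Nanos3, which encodes an RNA-binding protein needed for germ cell survival, stood at 5.11 and 2.65 CPM in ethanol and at 12.8 and 14.9 CPM with 4-OHT, and rose by 1.65 on the log2 scale (limma adjusted p = 0.00205), close to the 1.57 of Dppa3. The membrane protein genes Ifitm1 and Ifitm3 rose from 49.5 to 75.6 CPM and from 84.3 to 101 CPM. Kit, the receptor gene for stem cell factor, fell from 50.1 ± 0.871 to 23.1 ± 1.15 CPM. The germ cell specifiers Prdm1, Prdm14 and Tfap2c did not pass, and their levels in ethanol and 4-OHT were 5.44 and 5.69 CPM, 5.37 and 6.39 CPM, and 89.8 and 84.7 CPM.

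**Figure D5:**
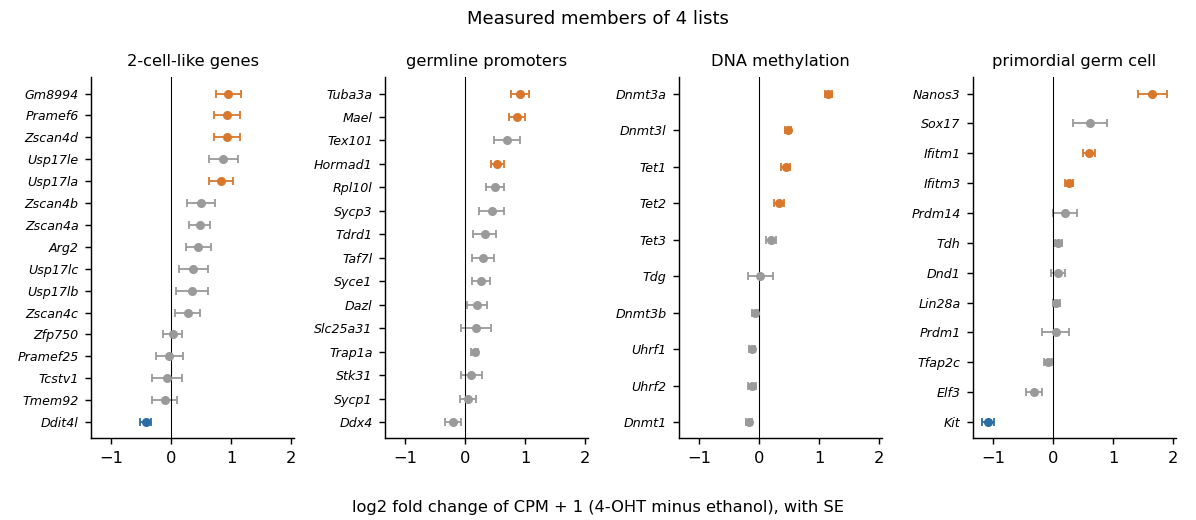
Difference in log2(CPM + 1) between 4-OHT and ethanol (horizontal axis) with its SE for the measured members of 4 lists; orange genes rose, blue genes fell and grey genes did not pass the threshold. In the lists 4 of 16, 3 of 15, 4 of 10 and 3 of 12 genes rose, and Ddit4l and Kit fell. Over all tested genes 5.24% rose and 4.22% fell.

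Naive and core pluripotency is the setting in which Dppa2, Dppa4 and Dppa5a are on. Of 20 such genes measured, 5 rose, 6 fell and 9 did not pass, where 5.24% of all tested genes rose and 4.22% fell. The median of the 20 was 0.03, against -0.00155 over all tested genes. DESeq2 called 4 higher and 3 lower. The largest change among the 20 was that of Nr5a2, a nuclear receptor gene, with 0.84. It was about as large in log2 as that of the oncogene family member Tcl1 (0.83). Both were smaller than that of Dppa3. The 6 that fell were Sox2, Klf5, Esrrb, Tfcp2l1, Tbx3 and Fbxo15. Their largest falls were -0.51 in log2 for Klf5 and -0.51 for Tfcp2l1. Pou5f1 was at 1442 ± 79.2 and 1439 ± 107 CPM and did not pass. Of 3 measured genes found with the Dppa genes in a search for transcripts that follow Oct4, 0 passed in limma and 0 had an unadjusted p under 0.05. Pramel6 and Pramel7 had 1 to 4 reads a library and were too low for edgeR, and Calcoco2 (22.7 and 26.7 CPM) did not pass in edgeR either. Among 5 measured KH-family and maternal-complex relatives of Dppa5a, Tle6 (4.27 to 7.83 CPM) and Zbed3 (29.2 to 41.3 CPM) rose and 0 fell. Over all tested genes 5.24% rose and 4.22% fell. Ooep and Khdc3 did not pass, and Padi6 had 0 reads in all 4 libraries. DESeq2 called neither Tle6 nor Zbed3 (DESeq2 adjusted p = 0.29 and 0.0624).

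Pseudogenes and genes with only a provisional name (such as Gm or Rik) were left out of a search for similar profiles. The genes of closest profile were then found by Euclidean distance of log2(CPM + 1) over the 4 libraries. For Dppa3 they were Enpp2, which encodes autotaxin (distance 0.308, 5.44 to 17.8 CPM), Tgm2, a transglutaminase gene (0.316, 5.75 to 18.4 CPM), and Car3, a carbonic anhydrase gene (0.331, 4.35 to 15.1 CPM). Closest to Dppa2 were Ntan1, Gatsl3 and Chp1 at distances of 0.0971 to 0.12, nearer to it than Dppa4 at 0.292. Rpusd4, Dpysl5 and Cdon were closest to Dppa4 (0.0538 to 0.0703), and Cse1l, Bag6 and Akr1a1 to Dppa5a (0.11 to 0.146). No member was thus among the 3 closest genes of another, and Dppa3 was at 4.57 from Dppa2 and 11 from Dppa5a. These distances use level and change together over 4 samples.

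Summed levels of markers of other cell types were higher in both 4-OHT libraries than in both ethanol libraries for each list examined. The same held for the summed ESC markers given above. A sum can rest on few genes, and single markers went either way. Calls in each list stand against 5.24% of all tested genes higher and 4.22% lower. Of 14 measured fibroblast feeder markers, Col1a2 (20.8 to 45.0 CPM) and Thy1 rose and 12 did not pass. Fbn1 and Mmp2, among those 12, were lower with 4-OHT. The summed feeder level was 296 to 297 CPM in ethanol and 318 to 329 CPM with 4-OHT. Of 7 primitive endoderm markers none passed in limma (edgeR called Sox7 and Cubn higher), with sums of 34.25 to 35.72 and 40.21 to 42.07 CPM. Of 7 trophoblast markers, Cdx2 (10.1 to 18.1 CPM) and Tfap2a (3.19 to 9.03 CPM) rose and Krt7 fell, with sums of 45.86 to 51.3 and 56.85 to 58.49 CPM. Of 6 late germ cell markers, Tex14 and Mael rose, with sums of 75.8 to 79.7 and 101 to 105 CPM. Ddx4, Dazl, Sycp3 and Mael of this list are also on the germline list above. DESeq2 did not call Thy1, Krt7 or Tex14. No measured marker was at 0 reads in all 4 libraries, 10 listed markers (4 of feeders, 3 of primitive endoderm and 3 of trophoblast) were not analysed here, and the part of these cells in the change of Dppa3 and Dppa2 was not tested.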

How the data were processed

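HISAT2 alignment to mm10 is among the steps in the submitters' processing notes, beside FastQC, Trimmomatic and edgeR. Versions, the read counter and its handling of strand are not given in those notes. Per the file headers, the authors deposited mean CPM for each group, with a log2 fold change and an adjusted p-value. The authors' deposited log2 and p-value columns were set aside as out of register: sorted by Entrez number as text, the p fell in 0 of 14381 steps, and the log2 column had a Spearman rho of 0.018 with the ratio of the means.

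Since a library's CPM is a whole number of reads times a fixed step, a mean of 2 libraries is built from 2 such steps, which were found from low values. In each column 100% of the 14382 values then came out whole to the printed digits, with 1 possible pair of reads for 99.73% (ethanol) and 99.95% (4-OHT). Asking for pairs within 2-fold settled the others except 6 genes, which were left out. Effective sizes were 6291532 to 7035534 reads.

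The test was limma 3.58.1 (trend, R 4.3.3) on log2(CPM + 1), without a low-value filter, adjusted over 14376 genes; fold changes on this scale understate those of low genes. Alternatives on the recovered reads used edgeR 4.0.16 and DESeq2 1.42.0, and ratios used exact permutation tests. Recovery and tests were checked on simulated data. Sequences came from Gencode and matches from blastn 2.17.0. For 746 genes symbols came from RefSeq. Members and lists were chosen with earlier results of these data known. Named genes were the 4 members, Arid1a, up to 3 called genes per list by size of change, any in a count of 5 or fewer, the nearest measured neighbours and the 3 closest profiles. Other genes were named after their values were seen.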

Additional observations from a re-analysis of the deposited data

How the results depend on the processing

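All 4 members kept a positive log2 fold change in every alternative tried (size factors of DESeq2, total reads, a pseudocount of 0.1, a mean CPM of at least 1, edgeR, DESeq2 and leaving out each library). The call of Dppa2 was lost in DESeq2 (log2 fold change 0.40, adjusted p = 0.102). Leaving out each library in limma and edgeR, the log2 fold change ranged from 0.38 to 0.42 for Dppa2 and from 1.41 to 1.91 for Dppa3, with both calls lost in limma without either 4-OHT library and made by edgeR in all 4 cases; a lone library was assumed to vary like the other group. The count of 1360 called genes was 2042 in edgeR, 704 in DESeq2, 638 at a threshold of 0.01 and 2062 at 0.1, and ranged from 0 (limma without either 4-OHT library) to 1767 when a library was left out. With a pseudocount of 0.1 the shift of Dppa3 against Dppa5a was 1.64, against 1.48. The log2 fold change of Dppa3 was then 1.73, against 1.57 in the main fit, and that of Dppa5a was 0.09 in both. The median log2 fold change of all genes was -0.00155, -0.00119 and -0.000674 under the 3 scalings. No paired analysis was possible because the recovered libraries carry no replicate numbers. Depth limits genes of a few reads, such as those of the 2-cell-like list.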
